A study of Mus musculus with 48 samples.

Results

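The genes that bring hexose sugars into a cell and trap them there were followed in inguinal subcutaneous white fat (sWAT) of mice fed in 2 meals a night (TAN) or ad-lib. The set was defined by name and held 7 of the 54532 genes in the count table: the fructose transporter gene Slc2a5, the fructose-handling enzyme genes Khk and Tkfc, and the glucose transporter genes Slc2a1, Slc2a3, Slc2a4 and Slc2a8. All 7 were among the 19977 genes that passed the filter on low counts. Slc2a5 was put into the set because of its response to TAN in these libraries, so the differences between TAN and ad-lib are given for the 7 genes as a description, without p-values. The share of all genes called as reported is given for each time point, and nothing is read from whether a gene was called.

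Hexoses cross the plasma membrane mainly through facilitative transporters of the SLC2 family, the GLUT proteins. GLUT4 is held in vesicles inside adipocytes and moves to the surface in response to insulin, whereas GLUT5 carries fructose and is known best from the small intestine. Inside the cell fructose can be phosphorylated by ketohexokinase, the product of Khk, and then split, while glucose is phosphorylated by hexokinases.

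Bulk RNA-seq counts were available for 48 libraries, with 4 libraries for either diet at all 6 times of day. All animals were C57BL/6 mice aged 8 months per the labels, and the study describes them as C57BL/6J males kept on their schedule with regular chow for 6 months. Ad-lib mice had free access to food, and TAN mice had their first meal from 9:00 p.m. until 11:00 p.m. and the other from 5:00 a.m. until 7:00 a.m., with lights going out at 8:00 p.m. and coming on at 8:00 a.m. Nothing in the labels says that replicates were separate animals, so errors measure the spread between libraries.

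Total counts ran from 15636378 to 29913310 per library. The series text names a stromal vascular fraction and the study whole sWAT. All 8 adipocyte markers were present in every library, with Adipoq, the adiponectin gene, at 551 CPM (counts scaled to library size) or more. Other cell types varied widely between libraries: the summed level of 10 lymphocyte markers ran from 7.71 to 2320 CPM and that of 8 skeletal muscle markers from 4.46 to 6350 CPM. In bulk tissue, fewer cells of a type and less RNA per cell cannot be told apart. In the ad-lib groups Dbp, a clock output gene, was highest at 4:00 p.m. (102 ± 19.9 CPM, SD, n = 4), and Arntl, which encodes the clock activator BMAL1, was highest at 8:00 a.m. (32.3 ± 9.59) and lowest at 4:00 p.m. (9.93 ± 2.96). A further expression table of the study gave the same animals time labels 12 h away for 48 of 48 libraries. The labels of the count table are used here, and under the other labelling morning and evening labels change places: noon (12:00 p.m.) with midnight (12:00 a.m.), 4:00 p.m. with 4:00 a.m. and 8:00 a.m. with 8:00 p.m.

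Slc2a5 (ENSMUSG00000028976, GRCm38 chr4:150119283-150144169, plus strand) was scarce in ad-lib sWAT and plentiful in TAN sWAT. Its level ran from 0.0374 to 16.0 CPM in the 24 ad-lib libraries. Outside 8:00 p.m., 19 of 20 TAN libraries lay above the highest ad-lib library. The exception to this separation was 8:00 p.m., just before the first meal, where 1 of 4 TAN libraries did.

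The stretch of the Slc2a5 promoter shown here held 3 GC boxes, the most in any of the 5 member promoters found. It lies 175 to 146 bases before the RefSeq start site, at GRCm38 chr4:150119169-150119198 on the plus strand, within Gm13093, a gene annotated on the minus strand. Capitals mark the 3 GC boxes (CCGCCC, or GGGCGG on the other strand).
Slc2a5 promoter: gctCCGCCCcctcccCCGCCCCCGCCCcct
A GC box was also present in the promoters of Khk and Slc2a1 and in 35.7% of 32851 RefSeq promoters of the same 300 bases. The window was not measured in these libraries, and the match is a description of letters only.

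At 8:00 a.m., shortly after the second meal, Slc2a5 stood at 5.64, 4.63, 0.601 and 1.44 CPM in the ad-lib libraries and at 30.1, 29.9, 25.9 and 24.6 CPM in the TAN libraries. The TAN libraries were tightly grouped and all above the ad-lib ones. The fitted difference was 3.17 on the log2 scale (SE 0.77, 95% interval 1.61 to 4.74). It was not called, a call being a Benjamini-Hochberg adjusted p under 0.05 in edgeR with more than 1 log2 of difference; 0.0100% of the genes tested were called higher at this time. It was called with DESeq2 (3.14), as were 0.0551% of all genes, and with the lymphocyte marker level as a covariate (3.41), as were 0.0651%.

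At 12:00 p.m. the ad-lib libraries held 1.12, 1.76, 3.02 and 1.51 CPM of Slc2a5 and the TAN libraries 49.8, 55.5, 18.9 and 73.7 CPM. The lowest TAN library was several times above the highest ad-lib library. The difference was 4.74 (SE 0.83, 95% interval 3.07 to 6.41), a 26.7-fold ratio, and was called, as were 0.0851% of all genes in that direction. The call was lost when ad-lib replicate 1, 2 or 4 was left out, with differences of 4.56, 4.70 and 4.63. Without the libraries rich in skeletal muscle markers, which leaves 1 TAN library at this time, the difference was 3.70 and not called.

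At 4:00 p.m. the ad-lib libraries held 4.26, 1.92, 0.195 and 0.0374 CPM, the last of these resting on 1 count, and the TAN libraries 15.9, 26.9, 20 and 77.7 CPM. Every TAN library was again above every ad-lib library, and ad-lib replicates 3 and 4 were far below the other two. The difference was 4.49 (SE 0.82, 95% interval 2.82 to 6.16) and was called, against 2.93% of all genes called higher. It was 3.74 without TAN replicate 4 and 5.69 without ad-lib replicate 1, and was called in each of the 8 fits that left out 1 library. At this time the summed lymphocyte markers were 9.08 to 309 CPM in TAN and 877 to 1520 CPM in ad-lib, and the summed adipocyte markers 25700 to 49000 CPM and 10600 to 17000 CPM. With the lymphocyte marker level as a covariate the difference was 3.65 and not called, in a fit that called none of the 19977 genes at 4:00 p.m.

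At 8:00 p.m. the groups overlapped. Slc2a5 was at 2.61, 6.43, 2.64 and 7.30 CPM in ad-lib and at 7.39, 3.01, 10.5 and 29.4 CPM in TAN, and the difference of 1.40 (SE 0.72, 95% interval -0.06 to 2.86) was not called, while 1.19% of all genes were called higher. TAN replicates 1 and 2 had 8150 and 5040 CPM of summed adipocyte markers, against 31100 and 41800 CPM in replicates 3 and 4. Without TAN replicate 4 the difference was 0.56.

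At 12:00 a.m., after the first meal, both diets had their highest mean. Ad-lib libraries held 16.0, 8.71, 7.85 and 5.26 CPM and TAN libraries 41.1, 133, 84.3 and 125 CPM, with no overlap. The difference of 3.34 (SE 0.77, 95% interval 1.79 to 4.89) was not called, while 0.110% of all genes were called higher. It was called without TAN replicate 1 (3.65), with DESeq2 (3.39, 0.750% of all genes called higher), with limma voom (3.29, 0.145%) and with RLE scaling (3.39, 0.185%).

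At 4:00 a.m. the ad-lib libraries held 2.61, 8.39, 12.8 and 13.6 CPM and the TAN libraries 36.5, 22.0, 38.8 and 49.8 CPM. The groups were apart, by less than at the daytime points, with a difference of 1.97 (SE 0.73, 95% interval 0.50 to 3.44). None of the 19977 genes was called at this time, higher or lower, by edgeR, and 2.64% had an unadjusted p under 0.05. DESeq2 called 1 gene higher and 3 lower. Slc2a5 was not among the genes called at 4:00 a.m. under any alternative.

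**Figure D1:**
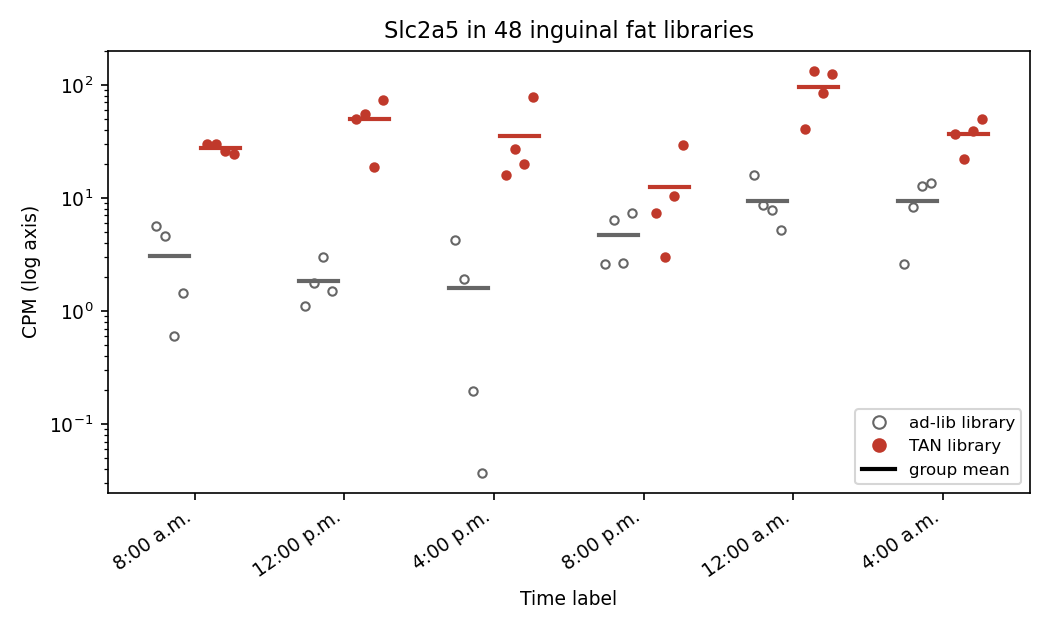
Slc2a5 level (CPM, log axis) in each library by time label, with open grey points for ad-lib, filled red points for TAN and a bar at each group mean of 4 libraries. The TAN libraries sit above the ad-lib libraries at every time except 8:00 p.m., where the groups overlap, and TAN is highest at 12:00 a.m. (41.1 to 133 CPM).

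Ordered by mean level, Slc2a5 was highest in TAN at 12:00 a.m. (96.0 ± 42.5 CPM, SD, n = 4), followed by TAN at 12:00 p.m. (49.5 ± 22.8), 4:00 a.m. (36.8 ± 11.4), 4:00 p.m. (35.1 ± 28.7), 8:00 a.m. (27.6 ± 2.76) and 8:00 p.m. (12.6 ± 11.6). The ad-lib means followed in the order 12:00 a.m. (9.45 ± 4.59), 4:00 a.m. (9.36 ± 5.06), 8:00 p.m. (4.75 ± 2.47), 8:00 a.m. (3.08 ± 2.43), 12:00 p.m. (1.85 ± 0.819) and 4:00 p.m. (1.6 ± 1.96). The range of each group overlapped that of the next in this order, and the difference between neighbours was not tested. Every TAN mean stood above every ad-lib mean. Averaged over the 6 time points the difference was 3.19 (SE 0.31).

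The fitted difference for Slc2a5 ran from 1.40 at 8:00 p.m. to 4.74 at 12:00 p.m., and its change between time points is given without a test for the same reason as the differences. Within TAN, Slc2a5 had a peak mean 7.65 times its lowest and passed the test of variation over the day together with Slc2a3, as did 23.0% of all genes. Within ad-lib none of the 7 passed by edgeR, nor by the DESeq2 likelihood ratio test on the ad-lib libraries alone. Few genes of any kind did, 0.0551% by edgeR and 0.568% by that DESeq2 test. By edgeR 1 of the 7 had an unadjusted p under 0.05 (Slc2a5), and the share of all genes under it was not computed. The time courses were in view when the set was named, so these counts are a description too.

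Slc2a5 was then set against the adipocyte marker level of each library. The most abundant marker was Fabp4 (median 9590 CPM). Whether diet changes the markers within adipocytes was not tested, so the ratio is not a level per adipocyte. Per 10000 CPM of the 8 summed adipocyte markers, it ran from 0.367 to 3.92 in ad-lib and from 15.4 to 18.9 in TAN at 8:00 a.m., from 0.321 to 1.41 and from 12.7 to 35.3 at 12:00 p.m., and from 0.024 to 3.11 and from 3.24 to 30.2 at 4:00 p.m. At 8:00 p.m. the ranges were 2.08 to 4.69 in ad-lib and 3.38 to 9.07 in TAN and overlapped. At 12:00 a.m. they were 2.74 to 8.16 and 19.5 to 40.3, and at 4:00 a.m. 2.02 to 8.34 and 13.4 to 24.4. The separation by library was the same as in CPM, with no overlap at 5 of 6 time points. The adipocyte marker level was also used as a covariate, a choice made after seeing the data. The differences for Slc2a5 were then 3.34, 4.72, 3.80, 1.11, 2.88 and 2.01 from 8:00 a.m. to 4:00 a.m. Those at 8:00 a.m., 12:00 p.m. and 4:00 p.m. were called, where 0.14%, 0.27% and 0.0701% of all genes were called higher.

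The next genes act on fructose after entry. Khk (ENSMUSG00000029162, GRCm38 chr5:30921431-30931248, plus strand), which encodes ketohexokinase, was called in no comparison and its groups overlapped at all 6 time points. Its groups also overlapped at all 6 relative to the adipocyte markers. Its promoter is shown because it was the only one of the 5 found that held an E-box (CACGTG, which reads the same on both strands), the letters that clock and sugar-responsive basic helix-loop-helix factors are known to bind. The window lies 83 to 54 bases before the RefSeq start site at GRCm38 chr5:30921476-30921505, in an exon of Khk outside its coding sequence in GENCODE M21, and capitals mark the E-box.
Khk promoter: agcgttccccgtCACGTGacaccgttaatc
An E-box was present in 7.15% of the RefSeq promoters. Binding was not measured.

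Khk was highest in the TAN libraries at 8:00 p.m. (11.9, 32.5, 35.4 and 44.2 CPM), where the ad-lib libraries held 17.3, 20.2, 20.5 and 28.0 CPM. TAN replicate 1 was below all ad-lib libraries and the other 3 above them, and the difference was 0.53 (95% interval -0.04 to 1.09). At 8:00 a.m. the order was the other way, with 27.4, 15.7, 25.1 and 41.7 CPM in ad-lib and 17.9, 16.5, 17.4 and 20.4 CPM in TAN, a difference of -0.60 (95% interval -1.17 to -0.04). The Khk interval at 8:00 a.m. was the only one of its 6 that left out 0. Averaged over the day the difference was 0.12 (SE 0.11), against 3.19 for Slc2a5.

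Tkfc (ENSMUSG00000034371, GRCm38 chr19:10592200-10604258, minus strand) encodes triokinase, which phosphorylates the glyceraldehyde made from fructose. Its level stayed between 5.20 and 21.6 CPM in all libraries. At 12:00 a.m. the 4 TAN libraries, at 15.3, 14.9, 21.2 and 14.4 CPM, lay above the ad-lib libraries at 12.5, 10.3, 13.4 and 12.9 CPM, with a difference of 0.42 (95% interval -0.19 to 1.04). At the other times the groups overlapped, and the differences ran from -0.22 to 0.08. Over the day the mean difference was 0.00 (SE 0.12). Per 10000 CPM of adipocyte markers, Tkfc ran from 1.42 to 6.58 in TAN and from 7.06 to 12.5 in ad-lib at 4:00 p.m. The ranges on this scale overlapped at all other times, 12:00 a.m. included.

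Slc2a4 (ENSMUSG00000018566, GRCm38 chr11:69942539-69948188, minus strand), which encodes the insulin-responsive transporter GLUT4, was the most abundant of the 7 genes and the one besides Slc2a5 that was called at any time. At 4:00 p.m. the ad-lib libraries held 177, 185, 113 and 179 CPM and the TAN libraries 320, 448, 357 and 476 CPM. The groups were apart, and the difference was 1.29 (SE 0.45, 95% interval 0.39 to 2.20). It was called, as were 2.93% of all genes in that direction. The call was lost in each of the 8 fits that left out 1 library, where the difference ran from 1.17 to 1.39. At 12:00 a.m. the TAN libraries, at 329, 727, 716 and 664 CPM, were again above the ad-lib libraries, at 259, 284, 292 and 252 CPM, with a difference of 1.16 (95% interval 0.26 to 2.06) that was not called.

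The 8:00 p.m. TAN libraries showed how far Slc2a4 can vary within a group: they held 67.5, 47.0, 289 and 629 CPM, in the same order of low and high as their adipocyte markers. Across the 48 libraries, as deviations from the group means, Slc2a4 had a Pearson's r of 0.929 and a Spearman's rho of 0.862 with the mean log2 level of the adipocyte markers, and 0.884 for r without the 2 libraries farthest in Slc2a4. This is a description over libraries that share tissue composition. Per 10000 CPM of adipocyte markers, Slc2a4 at 4:00 p.m. ran from 65.3 to 185 in TAN and from 107 to 129 in ad-lib. These ranges overlapped at all 6 time points. With the adipocyte covariate the 4:00 p.m. difference was 0.22 and with the lymphocyte covariate 0.36.

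Slc2a8 (ENSMUSG00000026791, GRCm38 chr2:32972990-32982083, minus strand), the gene of the largely intracellular transporter GLUT8, varied with Slc2a4 within groups (r = 0.884, rho = 0.822, 0.795 without the 2 farthest libraries, n = 48). At 4:00 p.m. it was at 20.4, 18.5, 16.3 and 22.3 CPM in ad-lib and at 28.0, 31.0, 35.6 and 29.4 CPM in TAN, and at 12:00 a.m. at 19.4, 21.3, 21.2 and 21.0 CPM and at 23.7, 33.9, 37.4 and 32.4 CPM. At both times the groups were apart, with differences of 0.68 (95% interval -0.01 to 1.37) and 0.62 (95% interval -0.07 to 1.31). Relative to the adipocyte markers its groups overlapped at all 6 time points, and its r with them was 0.924 (rho = 0.893, 0.874 without the 2 farthest libraries, n = 48).

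The gene of the basal glucose transporter GLUT1, Slc2a1 (ENSMUSG00000028645, GRCm38 chr4:119108711-119137983, plus strand), overlapped between diets at all times in CPM. It was lowest in TAN at 12:00 a.m., at 28.6, 14.9, 15.9 and 9.34 CPM against 25.7, 24.3, 26.7 and 22.6 CPM in ad-lib. There 3 of 4 TAN libraries lay below all ad-lib libraries and replicate 1 above them, for a difference of -0.53 (95% interval -1.08 to 0.02). Within groups Slc2a1 had an r of 0.859 with the lymphocyte markers (rho = 0.844, 0.826 without the 2 farthest libraries, n = 48) and of -0.769 with the adipocyte markers. With the lymphocyte covariate its difference at 4:00 p.m. went from -0.48 to 0.22, and with the adipocyte covariate to 0.06. Per 10000 CPM of adipocyte markers, Slc2a1 ran from 4.22 to 8.66 in TAN and from 14.1 to 33.3 in ad-lib at 4:00 p.m. The ranges on this scale overlapped at all other times.

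Slc2a3 (ENSMUSG00000003153, GRCm38 chr6:122727809-122801640, minus strand) encodes GLUT3, a high-affinity transporter known from neurons and blood cells. At 4:00 p.m. the 4 TAN libraries, at 19.8, 15.9, 26.6 and 19.5 CPM, lay below the ad-lib libraries, at 31.0, 27.7, 32.8 and 29.3 CPM. In CPM this was the 1 separation downwards among the 7 genes, at a time when 17.8% of all genes tested were separated in that direction. The difference of -0.56 (95% interval -1.04 to -0.08) was not called. With the lymphocyte covariate it was -0.25. Per 10000 CPM of adipocyte markers, Slc2a3 ran from 4.04 to 7.92 in TAN and from 16.3 to 30.9 in ad-lib at 4:00 p.m. TAN lay below ad-lib on this scale for Slc2a1 and Tkfc too, as given above. The share of all genes apart on this scale was not computed. In CPM, Slc2a3 had its highest mean at 8:00 p.m. in both diets, 43.5 ± 6.37 CPM in ad-lib and 38.6 ± 8.18 CPM in TAN (SD, n = 4). Slc2a3 overlaps Gm4482 on the same strand, whose reads may not be separable from its own.

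**Figure D2:**
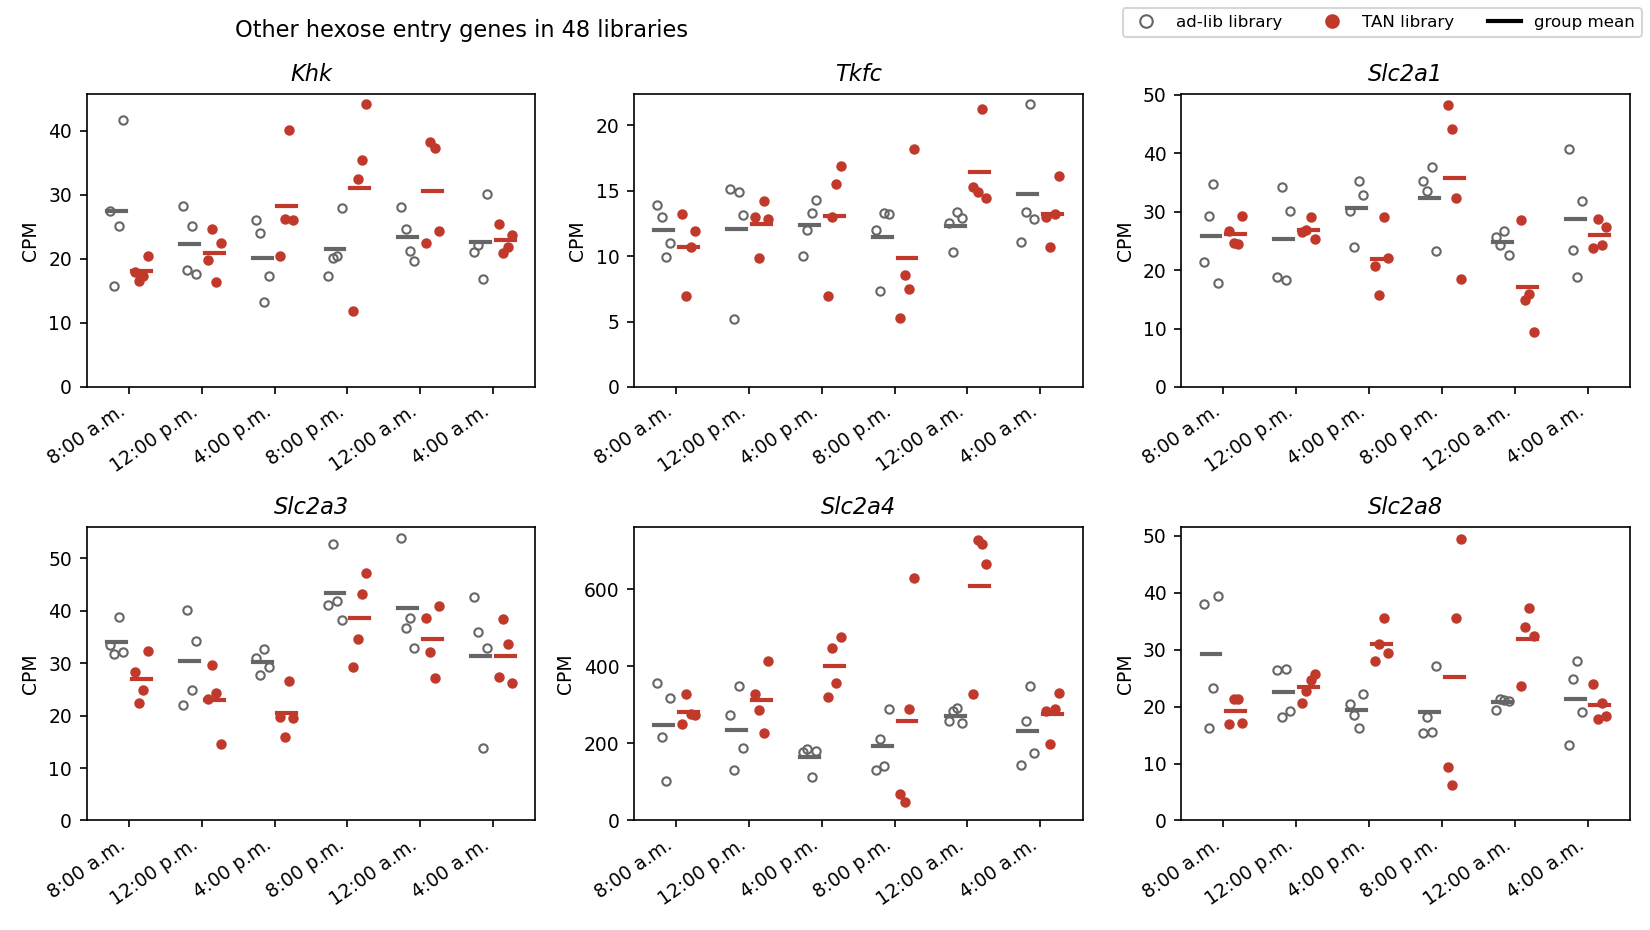
Levels (CPM, linear axes from 0) of Khk, Tkfc, Slc2a1, Slc2a3, Slc2a4 and Slc2a8 in each library by time label, with open grey points for ad-lib, filled red points for TAN and a bar at each group mean of 4 libraries. Slc2a4 and Slc2a8 are apart between diets at 12:00 a.m. as well as at 4:00 p.m. and spread widely in TAN at 8:00 p.m.; the TAN libraries of Slc2a3 lie below the ad-lib libraries at 4:00 p.m.

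Side by side, the largest fitted difference of any gene but Slc2a5 was the 1.29 of Slc2a4 at 4:00 p.m. In CPM, the counts of members with TAN above ad-lib without overlap were 1, 1, 3, 0, 4 and 1 of 7 from 8:00 a.m. to 4:00 a.m., against 2.03%, 3.30%, 12.8%, 4.55%, 3.59% and 1.91% of all genes. Those with TAN below ad-lib were 0, 0, 1, 0, 0 and 0 of 7, against 1.05%, 1.54%, 17.8%, 11.6%, 5.54% and 1.18%. Since the set was named with these differences known, nothing is read from that comparison. The median difference over the 7 genes ran from -0.16 at 8:00 a.m. to 0.49 at 4:00 p.m., and that over all genes from -0.14 at 12:00 a.m. to 0.04 at 12:00 p.m. The 6 comparisons use separate libraries but share 1 estimate of the spread.

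**Figure D3:**
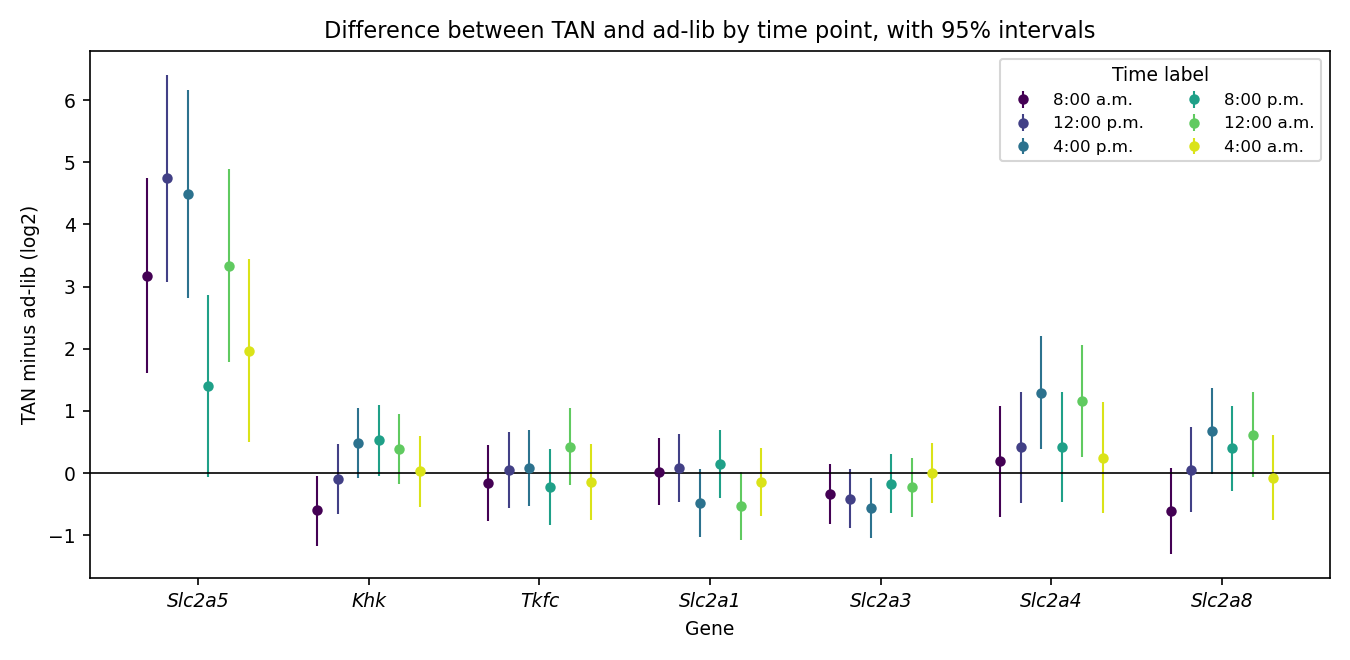
Fitted difference between TAN and ad-lib (log2) for the 7 genes, with 1 point per time label and bars for the 95% interval. Slc2a5 lies above 0 at every time, with an interval that reaches 0 only at 8:00 p.m.; the other genes lie between -0.61 and 1.29.

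Compared per length of transcript, the set kept 1 dominant member. Slc2a4 averaged 83.4 CPM per kb over the 48 libraries, Khk 13.4, Slc2a1 7.65, Slc2a8 7.35, Slc2a5 7.05, Tkfc 5.57 and Slc2a3 4.43. On this scale Slc2a5 was the least abundant of the 7 in ad-lib (1.47 ± 1.29 CPM per kb, SD over 24 libraries) and the third in TAN (12.6 ± 10), close to Khk (14.1 ± 4.67). The ad-lib mean of Khk on that scale was 12.7 ± 3.39.

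**Figure D4:**
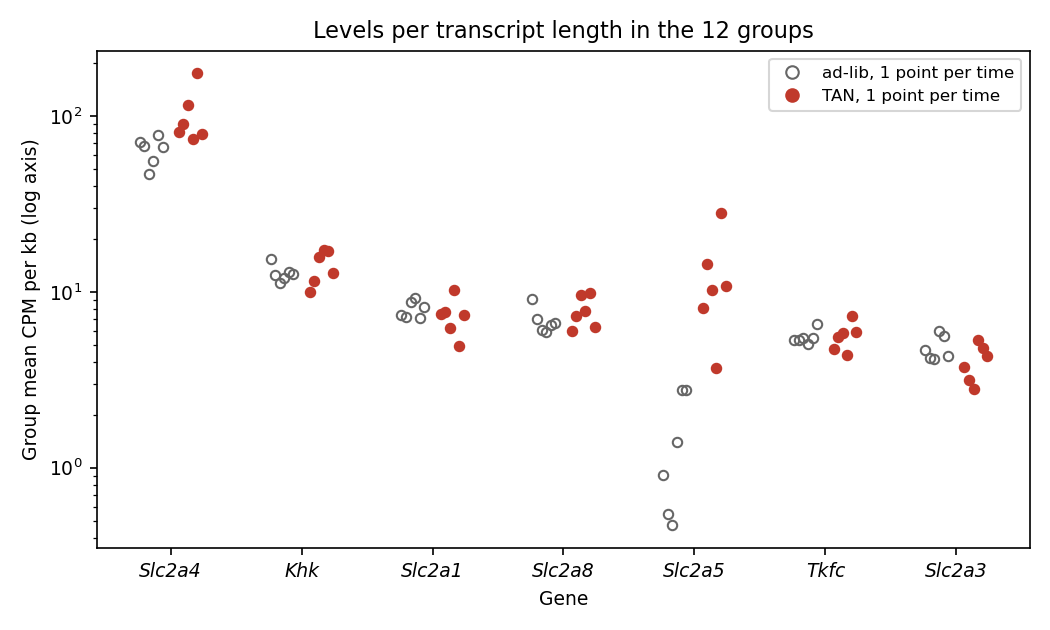
Group mean level per transcript length (CPM per kb, log axis) of the 7 genes, with 6 open grey points for ad-lib and 6 filled red points for TAN, 1 per time label. Slc2a4 is highest in all groups, and Slc2a5 spans the widest range, from below 1 in ad-lib to 28.2 in TAN at 12:00 a.m.

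Within groups, none of the 5 genes most like Slc2a5 was a hexose transporter gene. After subtracting group means in log2 CPM, the 5 genes of 19976 most like it over 48 libraries were Acly, ATP citrate lyase (r = 0.804, rho = 0.818), Acss2, which makes acetyl-CoA from acetate (0.784, 0.795), Elovl6, a fatty acid elongase (0.776, 0.816), Hephl1, a hephaestin-like ferroxidase gene (0.760, 0.839), and Pygl, the liver-type glycogen phosphorylase (0.737, 0.781). Without the 2 libraries in which Slc2a5 was farthest from its group mean, r ran from 0.801 to 0.842. The median r over all genes was 0.018. Among the other members Slc2a4 had the highest r (0.595, rho = 0.629, 0.711 without those 2 libraries) and ranked 112 of the 19976 genes. It was followed by Slc2a8 (0.372), Khk (0.314) and Tkfc (0.169), and Slc2a1 had the lowest r (-0.482). The r with the adipocyte markers was 0.396. Over the 12 group means the 5 most alike were Slc25a1, the mitochondrial citrate carrier (r = 0.970), Elovl6 (0.964), Cidea, a lipid droplet protein gene of brown and beige fat (0.961), Eno1, a glycolytic enolase (0.960), and Me1, malic enzyme (0.959). These values describe genes measured in the same libraries, with shared depth and tissue composition. The r over group means also holds the difference between the diets for which Slc2a5 was chosen, and nothing is read from it.

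**Figure D5:**
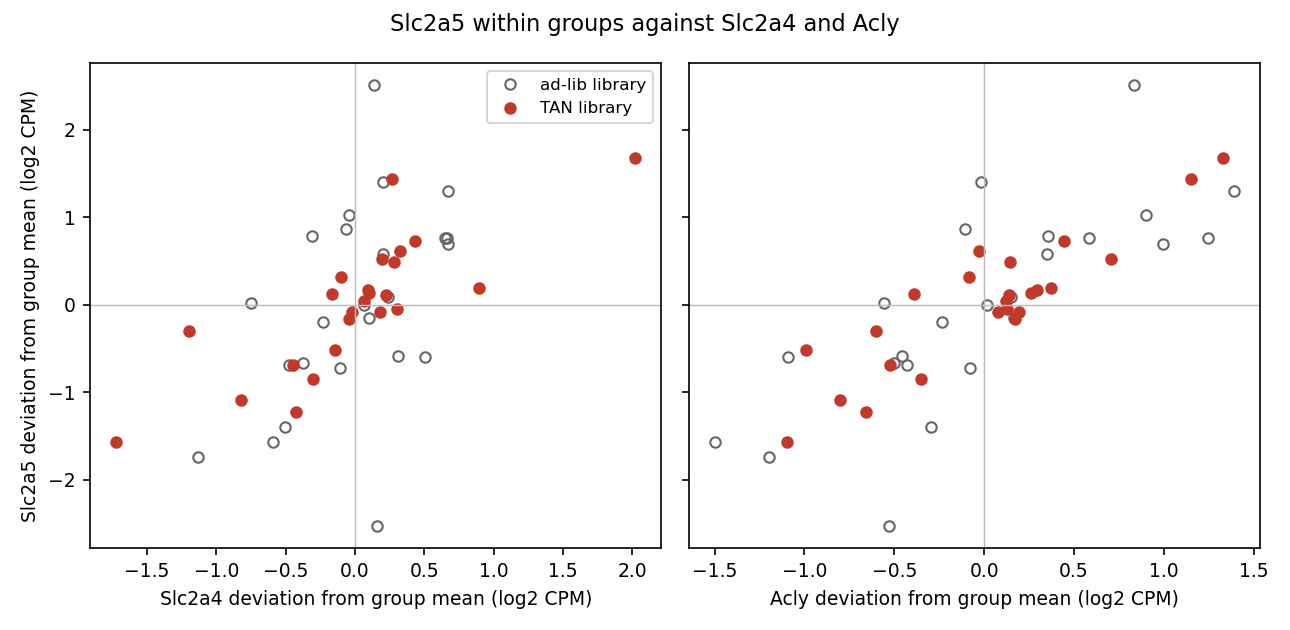
Deviation of Slc2a5 from its group mean (log2 CPM, vertical axis) against that of Slc2a4 (left) and Acly (right) in the 48 libraries, with open grey points for ad-lib and filled red points for TAN. The points follow Acly (r = 0.804), picked as the highest r of 19976 genes, more closely than Slc2a4 (r = 0.595). The 2 farthest Slc2a5 values are ad-lib libraries.

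The wider hexose entry pathway was read from 54 further genes in 7 lists, of which 45 passed the filter. By edgeR's quasi-likelihood test, with p-values adjusted over all genes, 5 were called higher and 2 lower under TAN at 4:00 p.m., and none at the other 5 time points. At 4:00 p.m. 2.93% of all genes were called higher and 7.43% lower, and the lower calls at the other time points were 0.00501% of all genes at 8:00 a.m. and likewise at 12:00 p.m., then 5.84% at 8:00 p.m. with 0.0250% at 12:00 a.m. With no minimum fold, 8 pathway genes passed upwards and 2 downwards at 4:00 p.m. (6.54% and 8.77% of all genes), and 2 and 1 at 8:00 p.m. (3.76% and 7.91%). The unadjusted p was under 0.05 for 3, 6, 20, 5, 12 and 1 of the 45 from 8:00 a.m. to 4:00 a.m., against 6.58%, 7.37%, 33.2%, 28.0%, 17.5% and 2.64% of all genes. DESeq2 called 2 of the pathway genes higher at 12:00 a.m. (Aldoa and Pmm1) and 0.750% of all genes. The test of change in the difference between time points was passed by 3 of the 45 and by 8.98% of all genes.

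Aldoa, an aldolase that splits fructose phosphates, rose at 4:00 p.m. from 627 ± 104 CPM in ad-lib to 1830 ± 519 CPM in TAN (SD, n = 4; 1.54 ± 0.35 SE on the log2 scale, adjusted p = 0.00931 by edgeR). Tpi1, triosephosphate isomerase, rose from 239 ± 50.1 to 627 ± 61.9 CPM (1.39, adjusted p = 0.0116 by edgeR). Among the galactose and mannose entry genes, Pmm1, a phosphomannomutase (1.08, adjusted p = 0.0183 by edgeR), and Galm, galactose mutarotase (1.06, adjusted p = 0.0293), rose. Slc2a6, a lysosomal hexose transporter gene of blood cells, fell from 5.77 ± 3.30 to 0.802 ± 0.975 CPM (-2.81, adjusted p = 0.0429 by edgeR), and Mlxip, the gene of the sugar-responsive factor MondoA, from 56.0 ± 11.7 to 27.0 ± 7.84 CPM (-1.05, adjusted p = 0.0487). All 7 were separated between the diets, which is no support beyond their calls, made on the same libraries. Of the 45 pathway genes 15 were separated upwards and 7 downwards at 4:00 p.m., against 12.8% and 17.8% of all genes. The 7 called genes moved together with the shift in adipocyte and lymphocyte markers at 4:00 p.m. given above. None of the 7 was called with either marker level as a covariate. At 4:00 p.m. the lymphocyte covariate left 0 of the 19977 genes called and the adipocyte covariate 14 higher and 15 lower. Leaving out ad-lib replicate 3 left 1 of the 5 higher calls and neither lower call. Slc2a6 ran from -4.09 without TAN replicate 3 to -2.33 without ad-lib replicate 3 and kept its call in 2 of 8 such fits, without TAN replicate 3 or ad-lib replicate 1. It lost the call with limma voom (-3.84) and with no filter on low counts (-2.90). Mlxip kept its call in 1 of 8.

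By list at 4:00 p.m., the 7 fructose breakdown and polyol enzymes had a median difference of 1.02, with 2 called higher. The 8 galactose and mannose entry enzymes had a median of 0.51, the 6 other facilitative transporters tested 0.56 with 1 called lower, and the 5 sugar-sensing regulators 0.07 with 1 called lower. None of the 5 hexose-phosphorylating enzymes (median -0.40) and none of the 13 GLUT4 vesicle traffic genes (0.24) was called. The median over all genes was -0.09. Slc5a11 was the 1 sodium-coupled sugar transporter gene of 7 that passed the filter and was not called.

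Levels per length placed the partners of the members. The highest were Aldoa (440 CPM per kb over 48 libraries) and Tpi1 (155) among the fructose breakdown enzymes and Txnip, an arrestin-like brake on glucose uptake (393), and Mlx (24) among the regulators. Rab10 (62.0) and Rhoq (60.3) led the GLUT4 traffic genes, both small GTPases, and Pmm1 (23.2) and Galm (21.8) the galactose and mannose genes. Hk2, the insulin-responsive hexokinase, stood at 18.6 and Adpgk at 4.24. Of the other facilitative transporters Slc2a13 (5.01) and Slc2a6 (1.85) were highest.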

How the data were processed

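Bulk RNA-seq of inguinal fat from 48 libraries was analysed. Per the study's methods poly-A RNA was sequenced as paired-end reads, and the authors deposited raw counts per gene with a gene length. The submitters' processing notes name TopHat 1.3.3, DESeq2 1.20.0, limma and edgeR and the builds mm9, mm10 and GRCm38 without roles, and use of strand is not given in the sources used here. A deposited table of FPKM means per group was not used.

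Genes were kept by edgeR's filterByExpr (minimum count 10), scaled by TMM and fitted in 12 groups of diet and time with edgeR 4.0.16 (robust quasi-likelihood test, R 4.3.3). Contrasts were TAN minus ad-lib at each time, their mean and change over time, and variation over the day within each diet. Calls used Benjamini-Hochberg adjusted p over all genes under 0.05 and an absolute log2 difference above 1. The scripts were tested on simulated data. CPM used TMM library sizes, and log2 CPM for correlations a prior count of 2. Aldoa is listed under 2 gene IDs, and the ID with the higher total was used. Promoter windows came from RefSeq (GRCm38.p6, 250 bases before to 50 after each start), with 5 of 7 members found. Those of Slc2a3 and Slc2a4 were not used here.

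The members and lists were chosen with earlier results of these data known. The text names all members, the pathway genes called at any time (1 is counted but not reported here), the 2 highest per kb in each pathway list and the 5 genes most like Slc2a5 by each measure. Alternatives were other filters, RLE scaling, DESeq2 1.42.0, limma 3.58.1 voom, a replicate block, a separate fit per time, any fold change, marker covariates and leaving out libraries. No 2 libraries held identical counts, and total counts, 15636378 to 29913310 per library, set the precision of low values such as Slc2a5 in ad-lib at 4:00 p.m., which rested on 75, 39, 5 and 1 counts.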

Additional observations from a re-analysis of the deposited data

Results flagged for a closer look

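In 4 of 84 groups of 4 libraries 1 library stood apart from the other 3 by Dixon's criterion, which chance meets in about 1 in 20 groups. Tkfc was at 21.2 CPM in TAN replicate 3 at 12:00 a.m., against 14.4 to 15.3 in the others. Slc2a4 was at 113 CPM in ad-lib replicate 3 at 4:00 p.m., against 177 to 185, and at 329 CPM in TAN replicate 1 at 12:00 a.m., against 664 to 727. Slc2a8 was at 19.4 CPM in ad-lib replicate 1 at 12:00 a.m., against 21.0 to 21.3.

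The difference between TAN and ad-lib changed between time points by edgeR's F test for 3 of the 45 pathway genes, and for 8.98% of all genes tested. For Akr1b3, aldose reductase, which starts the polyol route from glucose to fructose, it was 0.90 higher on the log2 scale at 4:00 p.m. than at 8:00 a.m. (0.77 against -0.13). For Tpi1 it was 1.96 higher at 4:00 p.m. than at 4:00 a.m. (1.39 against -0.57). For Txnip it was 1.51 higher at 4:00 p.m. than at 8:00 a.m. (0.46 against -1.05).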

How the results depend on the processing

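No difference that was called, as reported or under an alternative, changed its sign. Of 1668 alternative differences 120 changed sign, none of them called either way, among them Slc2a1 at 4:00 p.m. (0.22 with the lymphocyte and 0.06 with the adipocyte covariate, from -0.48) and Slc2a4 at 8:00 p.m. (-0.23 with voom and -0.51 without TAN replicate 4, from 0.42). Of 2253 alternative values, 1262 were unchanged, 61 moved, 26 lost and 4 gained a call with all settings but leaving out a library. When 1 library was left out these counts were 850, 26, 22 and 2. Unchanged means close to the reported value or the same call status, and can include a sign change in a difference that was not called. Over 11 alternatives the Slc2a5 difference ran from 2.98 to 3.83 at 8:00 a.m., 3.70 to 5.20 at 12:00 p.m., 3.65 to 5.79 at 4:00 p.m., 0.57 to 1.54 at 8:00 p.m., 2.65 to 3.42 at 12:00 a.m. and 1.95 to 2.16 at 4:00 a.m. A filter of 10 counts in every library removed Slc2a5, so it gave no value.

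Percentages in brackets are the shares of all genes called in the same direction by the same fit. Member calls at 12:00 p.m., 1 as reported, were 0 with the filter of 10 counts in every library (0.188%) or the replicate block (0.0601%). At 4:00 p.m., 2 as reported, they were 1 with that filter (4.71%) or no filter (0.927%) and 0 with the lymphocyte covariate (0%). At 8:00 a.m. 1 member was called with DESeq2 (0.0551%) or the lymphocyte covariate (0.0651%). At 12:00 a.m. 1 was called with RLE (0.185%), voom (0.145%), DESeq2 (0.75%) or the muscle covariate (0.16%). Of the other hexose entry genes, any fold change gave 8 rises at 4:00 p.m. (6.54%), and 2 rises (3.76%) with 1 fall (7.91%) at 8:00 p.m. The strict filter gave 1 rise at 8:00 p.m. (3.38%). Lower calls at 4:00 p.m., 2 as reported, were 0 without a filter (2.84%) and 1 with voom (9.24%) or the block (5.48%). With the lymphocyte covariate there was 1 rise at 12:00 p.m. (0.425%). There were 0 rises and 0 falls at 4:00 p.m. (0% either way), then 1 fall at 8:00 p.m. (9.58%). DESeq2 gave 2 rises (0.75%) and the muscle covariate 1 rise (0.16%) at 12:00 a.m. The cause was not tested.

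The adipocyte covariate and both omissions below were chosen after seeing the data. Percentages are shares of all genes as above. The covariate gave 1 member call at 8:00 a.m. (0.14%) and 1 at 4:00 p.m. (0.0701%). It left 0 rises (0.0701%) and 0 falls (0.0751%) of the others at 4:00 p.m., with 3 falls at 8:00 p.m. (12.1%). Without 10 libraries low in lymphocyte markers, members called were 0 at 12:00 p.m. (0.0755%), and 4 others fell at 8:00 p.m. (9.37%). At 4:00 p.m., where TAN replicate 3 alone was left, the Slc2a5 difference was 3.69. Without 15 libraries high in muscle markers, Slc2a5 at 12:00 p.m. was 3.70, where TAN replicate 3 alone was left. With that omission 1 member was called higher (1.55%) and 0 others lower (3.56%) at 4:00 p.m.

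When 1 library was left out, members called ranged from 0 to 1 at 12:00 p.m., 1 to 1 at 4:00 p.m. and 0 to 1 at 12:00 a.m. The share of all genes called was not computed for these fits. Rises of others ranged from 1 (without ad-lib replicate 3) to 5 at 4:00 p.m., 0 to 1 at 8:00 p.m. and 0 to 2 at 12:00 a.m. Falls ranged from 0 to 2 at 4:00 p.m. and from 0 to 1 at 8:00 p.m., likewise at 12:00 a.m.

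Replicate numbers did not pair libraries: of 24 same-numbered pairs 10 had deviations correlated above 0.1 (median -0.0127), and 14 of 48 libraries correlated best with their own number. With the replicate block, called members were 0 at 12:00 p.m. (0.0601% of all genes called higher) and lower others 1 at 4:00 p.m. (5.48% called lower).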
